A study of Drosophila melanogaster and Drosophila miranda with 8 samples.

Results

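CLAMP peaks on the heterochromatic and unplaced sequences of the *D. melanogaster* dm3 assembly are described here, as mapped by ChIP-seq in whole wild type female larvae of the third instar grown at 21 °C. The members are all peaks on the placed heterochromatic sequences XHet, 2LHet, 2RHet, 3LHet and 3RHet and on the unplaced sequences U and Uextra, chosen by the name of the sequence alone. There were 93 of these among the 9080 peaks of replicate 1 and 368 among the 8792 peaks of replicate 2. Together they are 461 of the 33972 peaks in the 4 ChIP lists of the series, since the *D. miranda* lists name no such sequence. Each replicate consisted of a ChIP library made with a CLAMP antibody and an input library that was not immunoprecipitated, and larvae were pooled for chromatin, so the lists average over all larval tissues. Both libraries belong to a single condition and peaks of 1 library are not replicates of each other, so values are compared by description and by intervals for counting error, with no test of a difference.

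CLAMP is a zinc finger protein that binds GA-rich sequences throughout the genome, and in males it links the MSL dosage compensation complex to the X-chromosome. Heterochromatin is the compact, repeat-rich and gene-poor chromatin around centromeres, marked by methylated H3K9 and HP1. The dm3 sequences whose names end in Het hold those parts of the heterochromatin that could be assigned to an arm. U joins scaffolds that were not placed on any chromosome, and Uextra joins further small scaffolds of lower quality, so a distance along either is not a distance along a chromosome. Only uniquely aligned reads entered the peak calls, and repeats with identical copies elsewhere are therefore not represented. No dm3 sequence or annotation was used, so positions are given without genes and without bases.

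The 2 replicates differed in how many peaks they held on these sequences. They made up 1.02% of the replicate 1 list (exact Clopper-Pearson 95% interval 0.827 to 1.25) and 4.19% of the replicate 2 list (3.78 to 4.63), a mean of 2.60% ± 2.24 (SD, n = 2). These intervals, like all others given here, cover counting error only. The number of peaks was thus 3.96 times higher in replicate 2, whereas on the 6 assembled chromosomes (X, 2L, 2R, 3L, 3R and 4) replicate 2 had 0.937 times as many peaks as replicate 1. Every one of the 7 sequences had more peaks in replicate 2.

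The 2RHet sequence held the most peaks in replicate 1, with 29, and 85 in replicate 2. The 3LHet sequence had 16 and 76 peaks and 3RHet had 8 and 37. The increase was smallest on XHet, with 8 and 11 peaks, and 2LHet had none in replicate 1 and 8 in replicate 2. Of the unplaced sequences, U had 13 and 48 peaks and Uextra had 19 and 103, the steepest rise among the sequences with a peak in both lists (5.42 times). Chromosome 4, the small autosome that is itself largely heterochromatic, had 93 and 114 peaks, a ratio of 1.23.

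**Figure D1:**
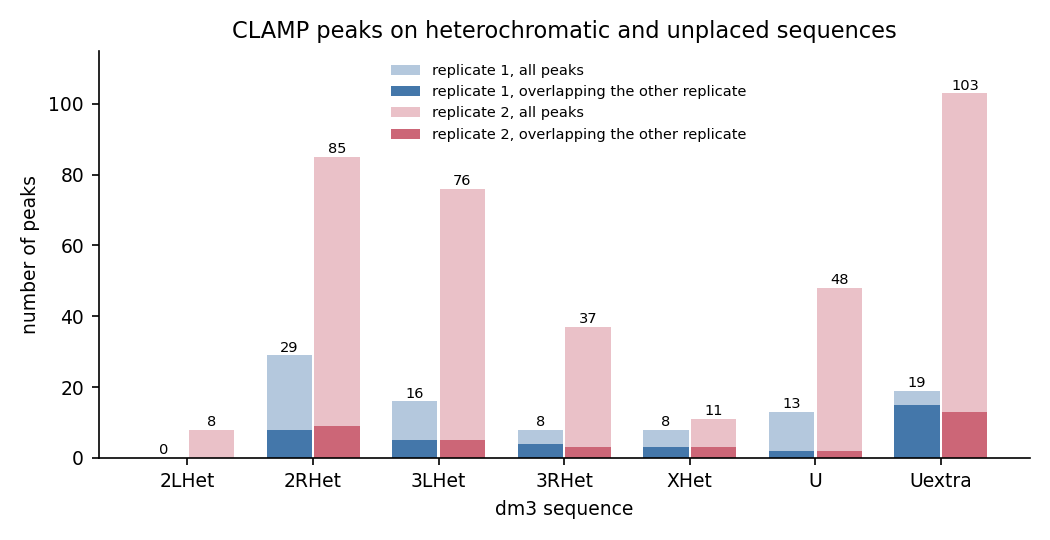
Number of CLAMP peaks (vertical axis) on each of the 7 dm3 sequences (horizontal axis) in replicate 1 (blue) and replicate 2 (red); the dark part of a bar is the peaks that overlap a peak of the other replicate by at least 1 bp. Uextra rises from 19 to 103 peaks, and most of its 19 replicate 1 peaks are in the dark part, against few of its replicate 2 peaks.

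Peaks were sparse on most of these sequences. With the position where the final peak of the lists ends as the length, the 7 sequences span 47.6 Mb and held 1.95 peaks per Mb in replicate 1 and 7.73 in replicate 2, against 74.7 and 70.0 on the 120 Mb of the assembled chromosomes. A sequence can run on past its final peak, so these densities are upper limits. The short XHet, of 0.164 Mb by this measure, stood apart with 48.9 and 67.2 peaks per Mb. The other placed sequences had lower densities, at 8.95 and 26.2 per Mb on 2RHet, 6.29 and 29.9 on 3LHet and 3.18 and 14.7 on 3RHet, and 2LHet had 41.2 in replicate 2. The unplaced sequences were the sparsest, with 1.31 and 4.83 peaks per Mb on U and 0.655 and 3.55 on Uextra. How much of each sequence could be aligned uniquely was not measured, so density and alignable length cannot be told apart here.

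The 2 lists also differed in the height of these peaks. Each peak carries 1 value, taken to be the enrichment of ChIP over input on a log2 scale after normalization by library size. In replicate 1, the median value of the members was 3.12 (quartiles 2.84 and 3.43) and that of the assembled chromosomes was 3.12 (2.84 and 3.49), a difference of 0.00 with an order-statistic 95% interval of -0.09 to 0.16. In replicate 2, the median was 4.65 (3.32 and 5.71) on the 7 sequences and 2.21 (1.85 and 2.70) on the assembled chromosomes, a difference of 2.44 (1.91 to 2.76). Both intervals are those of the members' median, less the median of the assembled chromosomes taken as fixed. In replicate 2, 347 of the 368 peaks (94.3%) exceeded the median of the assembled chromosomes, and 281 (76.4%) exceeded the value that the highest 10% of the peaks there exceed. In replicate 1 these numbers were 45 of 93 (48.4%) and 11 of 93 (11.8%). The heterochromatic and unplaced peaks therefore stood no higher than other peaks in replicate 1 and stood well above them in replicate 2.

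The rise in replicate 2 was graded across the sequences. The median value was 5.97 on Uextra (103 peaks, range 1.43 to 9.78) and 4.97 on U (48 peaks, 2.21 to 8.14). It was lower on the placed sequences, at 3.97 on 3RHet (37 peaks), 3.83 on 3LHet (76 peaks), 3.61 on 2RHet (85 peaks), 3.51 on XHet (11 peaks) and 2.71 on 2LHet (8 peaks). The 95% intervals of 3RHet (3.31 to 4.55), 3LHet (3.38 to 4.12), 2RHet (3.32 to 4.12), XHet (1.88 to 4.97) and 2LHet (1.62 to 4.97) overlap. The order of these 5 medians is therefore not read as a difference between the sequences. Such intervals come from peaks of a single library and do not test one sequence against another. The interval of Uextra (5.59 to 6.29) lies above that of U (4.06 to 5.38), which overlaps those of 3RHet, 3LHet and 2RHet as well as the wide ones of XHet and 2LHet. For the 5 placed sequences together the median was 3.71 over 217 peaks, 1.50 above the assembled chromosomes, so the rise was not limited to U and Uextra. The intervals of XHet and 2LHet include the 2.21 of the assembled chromosomes. The rise on placed sequences therefore rests on 2RHet, 3LHet and 3RHet.

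No such order was seen in replicate 1. There the medians were 3.32 on 3RHet, 3.28 on U, 3.12 on Uextra, 3.03 on 2RHet and on 3LHet, and 2.89 on XHet, and the intervals of all 6 sequences overlap. The values on Uextra, of 19 peaks between 1.06 and 5.02, spread the most.

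**Figure D2:**
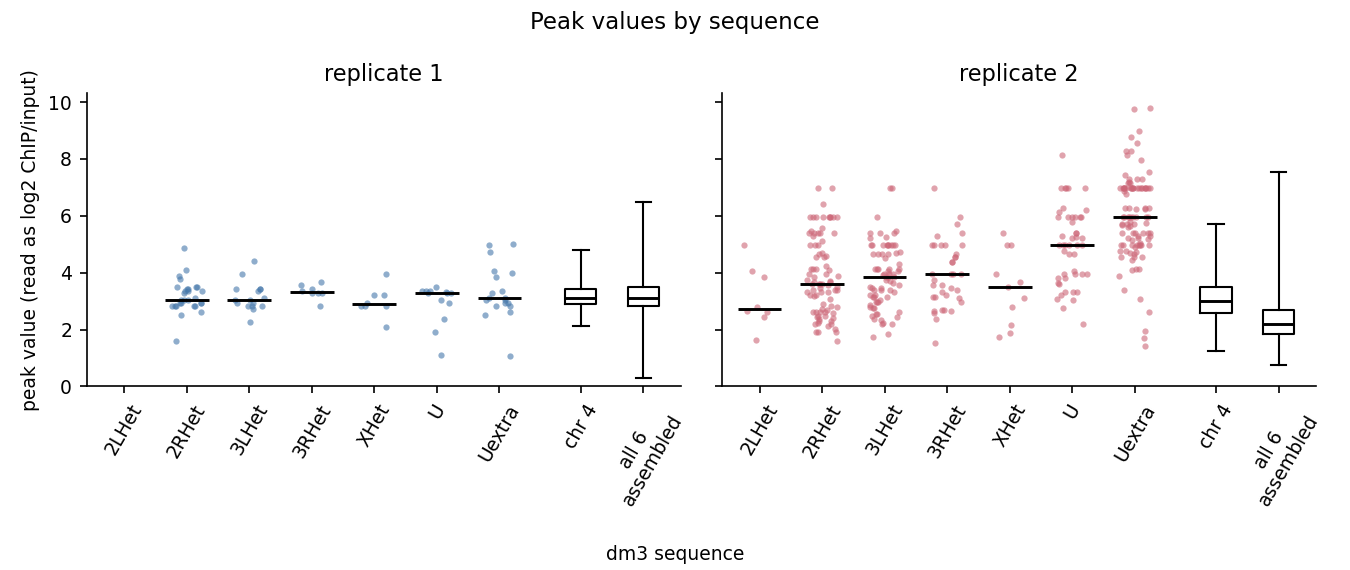
Peak value, read as log2 of ChIP over input, for every member by sequence (points, with the median as a bar) and for chromosome 4 and all 6 assembled chromosomes (boxes with quartiles, median, and whiskers from the lowest to the highest value), in replicate 1 (left) and replicate 2 (right). The medians sit near 3.12 everywhere in replicate 1, whereas in replicate 2 they reach 4.97 on U and 5.97 on Uextra against 2.21 on the assembled chromosomes.

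Chromosome 4 and the ends of the arms next to the centromeres are the parts of the assembled genome most like these sequences. Chromosome 4 had a median value of 3.12 in replicate 1 and 3.00 in replicate 2, which is above the median of all assembled chromosomes in replicate 2 and below the 3.71 of the placed sequences together. The 1 Mb of X, 2L, 2R, 3L and 3R nearest to the centromere, a window chosen after the values had been seen, had a median of 3.12 over 209 peaks in replicate 1. In replicate 2 it was 2.73 over 303 peaks, against 2.21 over 1337 peaks at 1 to 5 Mb and 2.18 over 6670 peaks farther away. Higher values next to the centromere were thus also found on the assembled arms, in replicate 2 and not in replicate 1, by less than over all placed Het sequences. On 2LHet alone the replicate 2 median was 2.71 over 8 peaks, no higher than on chromosome 4 or in this 1 Mb. Of the replicate 2 peaks in this 1 Mb, 19.8% overlapped a replicate 1 peak, against 31.9% at 1 to 5 Mb and 26.7% farther away. That share also depends on the counts in this 1 Mb, of 209 peaks in replicate 1 and 303 in replicate 2. On chromosome 4 the share was 30.7% in replicate 2 (35 of 114 peaks) and 36.6% in replicate 1 (34 of 93 peaks).

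Ranking each list by value gives the same contrast. In replicate 2, the highest 10 peaks of the whole list were all members, 9 on Uextra and 1 on U. The highest 100, which are 104 peaks with ties and 1.18% of the list, included 86 members (82.7%, 95% interval 74.0 to 89.4). Of these, 54 were on Uextra, 15 on U, 12 on 2RHet, 3 on 3LHet and 2 on 3RHet. The highest 100 of replicate 1, which are 108 peaks with ties and 1.19% of the list, included 4 members (3.70%, 1.02 to 9.21), 3 on Uextra and 1 on 2RHet. At the other end, the lowest 10% held 2 members among 884 peaks in replicate 2 and 12 among 1053 in replicate 1.

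**Figure D3:**
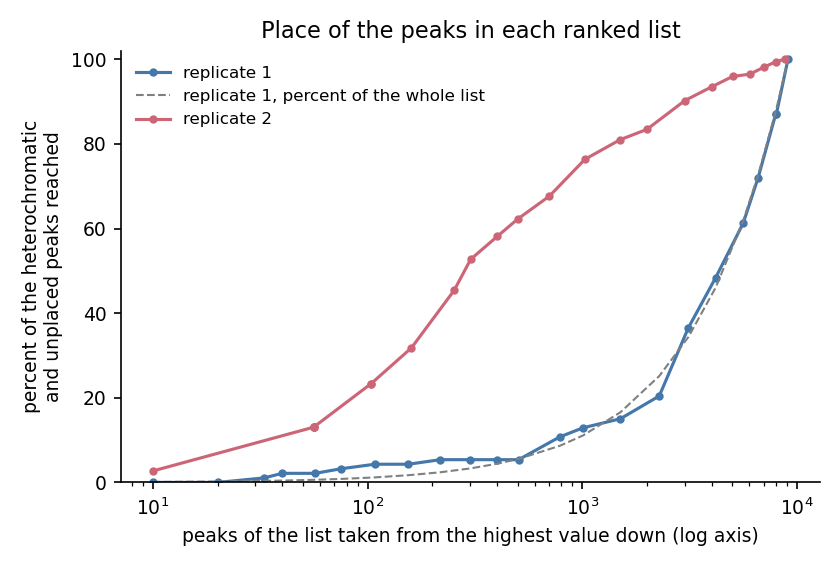
Percent of the heterochromatic and unplaced peaks reached (vertical axis) as peaks are taken from the highest value down (horizontal axis, log scale, ties kept together) in replicate 1 (blue) and replicate 2 (red); the dashed line is the percent of the whole replicate 1 list. The replicate 1 curve stays near the dashed line except among the highest peaks, where it lies above it (4 of 93 members in the highest 108 peaks), and the replicate 2 curve lies far above it, with 281 of its 368 members among the highest 1029 peaks.

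The 5 highest members of replicate 2 were all on Uextra. The highest value of the list, 9.78, belonged to the peak from 21860576 to 21862631, and the next, 9.75, to the peak from 12248202 to 12250249. Both of these positions also had a peak in replicate 1. The others were from 13784516 to 13786520 (value 8.97), from 10738693 to 10740724 (8.78) and from 28614664 to 28616673 (8.55), and none of these overlapped a peak of replicate 1. All 5 were between 2005 and 2056 bp wide.

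In replicate 1, the 5 highest members were less extreme and all overlapped a peak of replicate 2. They were on Uextra from 3203794 to 3205858 (value 5.02, rank 28 of 9080), on Uextra from 18118516 to 18120615 (4.97, rank 40), on 2RHet from 1257971 to 1260232 (4.87, rank 61), on Uextra from 12248211 to 12250251 (4.72, rank 81) and on 3LHet from 2459912 to 2462844 (4.43, rank 198). The lowest member of this list, at 1.06, was on Uextra from 6949235 to 6950275, and it too had a partner in replicate 2. High peaks of replicate 1 also recurred more often on the assembled chromosomes. There, 1217 of 4933 peaks over 3 and up to 4 overlapped a replicate 2 peak. This held for 240 of 600 over 4 and up to 5, and for 23 of 27 over 5 and up to 6. Of the members, all 6 over 4 and up to 5 did. Recurrence of the highest peaks is therefore not particular to these sequences.

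The 368 members of replicate 2 had 145 distinct values, of which a few were common. The most common were 4.97 (34 members), 6.97 (30 members) and 5.97 (26 members), which lie 1 apart. In all, 110 of the 368 members (29.9%) lay on this ladder of steps of 1 (tolerance 1e-06), against 300 of 8424 peaks (3.56%) on the assembled chromosomes. The ladder was set by the most common value of the members. The most common values of the assembled chromosomes were others, 2.38 and 2.73, so a higher share of members is built into this comparison. The share was 43.8% on U, 37.9% on Uextra and 23.0% on the placed sequences. A ratio formed from few tags can take few values, but the lists hold no tag counts, so the depth behind these values is unknown here. Without the peaks on these steps, an alternative chosen after seeing the data, the difference in median from the assembled chromosomes was 1.63 over 258 members. Most of the members left out had 4.97, 5.97 or 6.97, above the members' median of 4.65. A smaller difference thus follows from that choice. In replicate 1, the 5 most common values held 52.7% of the members and 46.4% of the peaks on the assembled chromosomes, so coarse values were common to both there.

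The median width was 1440 bp in replicate 1 and 1525 bp in replicate 2, against 1299 and 1514 bp on the assembled chromosomes. No peak is narrower than 1000 bp. The widest members of replicate 1 were on 3LHet from 2459912 to 2462844 (2933 bp, value 4.43), on 2RHet from 3233252 to 3236042 (2791 bp, value 1.60) and on U from 1088466 to 1091017 (2552 bp, value 1.11). Those of replicate 2 were on 3LHet from 2517922 to 2521885 (3964 bp, value 3.93), on Uextra from 205361 to 208742 (3382 bp, value 1.43) and on U from 3431877 to 3434908 (3032 bp, value 3.82). The widest peaks on the assembled chromosomes reached 7008 and 7047 bp, and the 100 widest peaks of the list included no member in replicate 1 and 1 in replicate 2.

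The members clustered at 2 widths, which the medians do not show. On Uextra, a width of 1000 to 1100 bp was found for 11 of 19 peaks in replicate 1 and 48 of 103 in replicate 2, and one of 1950 to 2100 bp for 7 and 39. These 2 classes together held 94.7% and 84.5% of the Uextra peaks, against 59.0% and 48.4% on the placed sequences and 46.0% and 35.0% on the assembled chromosomes. Width varied with value in both lists. In replicate 1, 25 of the 36 members with a value up to 3 (69.4%) were in the narrow class and none of the 6 over 4 and up to 5, and on the assembled chromosomes these shares were 66.2% and 0.667%. In replicate 2 narrow peaks were found at higher values. Of the 42 members with a value over 6 and up to 7, 32 (76.2%) were in the narrow class, and of the 30 members at exactly 6.97, 28 were 1000 bp wide. On the assembled chromosomes, 9 of the 10 peaks over 6 and up to 7 were narrow as well. Of the 18 members of replicate 2 above 7, 12 (66.7%) were 1950 to 2100 bp wide. The class limits were chosen after the widths had been seen.

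**Figure D4:**
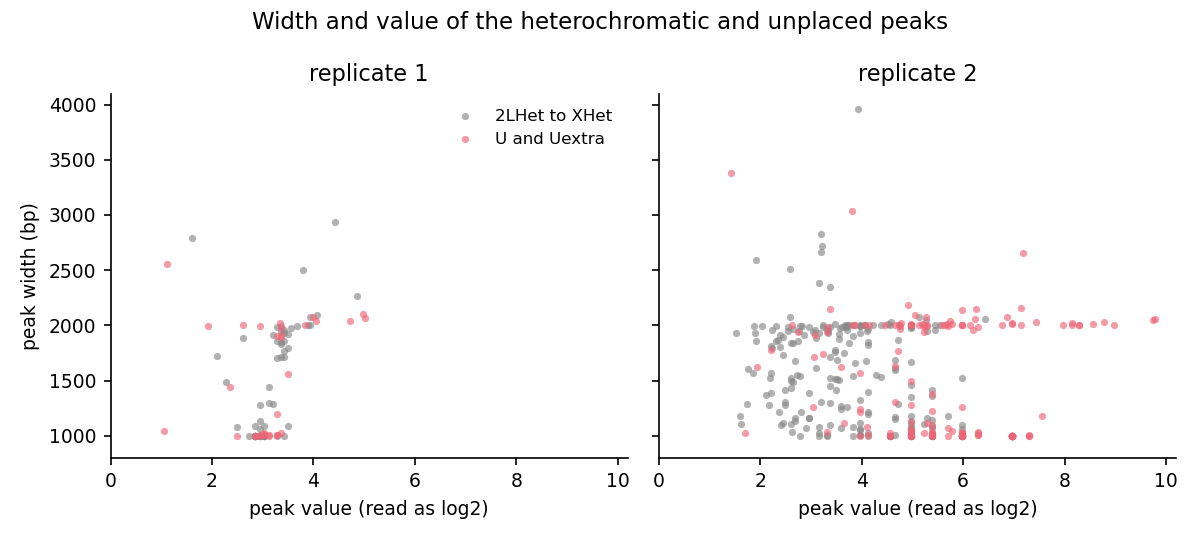
Width in bp (vertical axis) against value, read as log2 (horizontal axis), of each member on the placed Het sequences (gray) and on U and Uextra (red), in replicate 1 (left) and replicate 2 (right). The points gather at 1000 and near 2000 bp, most clearly on U and Uextra, and columns of points at 4.97, 5.97 and 6.97 mark the common values of replicate 2.

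To see which of these peaks recurred, any overlap of 1 bp or more between the lists was taken as a link. Of the 93 replicate 1 members, 37 (39.8%, 95% interval 29.8 to 50.5) overlapped a replicate 2 peak, against 25.9% of all peaks of that list. Of the 368 replicate 2 members, 35 (9.51%, 6.71 to 13.0) overlapped a replicate 1 peak, against 26.6% of all peaks. These linked peaks form 33 regions. Sharing was thus above the level of the whole list in replicate 1 and below it in replicate 2, where 333 members had no partner. These shares are not independent of the counts. With 93 members in replicate 1 against 368 in replicate 2, most replicate 2 members lack a partner if each peak links to 1 other. The assembled chromosomes had 8987 and 8424 peaks. The lower share in replicate 2 is therefore not read as a trait of these peaks.

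Most of the replicate 1 excess lay on Uextra. There, 15 of 19 replicate 1 peaks (78.9%, 54.4 to 93.9) overlapped a replicate 2 peak, and the replicate 2 peaks cover 0.541% of the length of Uextra. On the assembled chromosomes, 25.7% of the replicate 1 peaks were shared, and the replicate 2 peaks cover 11.2% of the length. The alignable part of these lengths was not measured, so the covered shares do not give a level expected by chance. On the 5 placed sequences 20 of 61 replicate 1 peaks (32.8%, 21.3 to 46.0) were shared, with an interval that includes the level of the whole list. Only 2 of 13 peaks on U were shared (15.4%, 1.92 to 45.4). The sharing of the replicate 2 peaks was low on every sequence with many peaks, at 13 of 103 on Uextra, 2 of 48 on U, 9 of 85 on 2RHet, 5 of 76 on 3LHet and 3 of 37 on 3RHet. Replicate 1 held only 19, 13, 29, 16 and 8 peaks on these sequences, in the same order. This limits how many replicate 2 peaks could have a partner there.

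A stricter rule gave the same order, under the same limit of counts. With an overlap of at least 50% of both peaks, 24 of 93 replicate 1 members (25.8%) were shared, against 12.9% of all peaks of that list, and 24 of 368 replicate 2 members (6.52%), against 13.3% of all. With peak centers within 200 bp of each other, 11 members of each list (11.8% and 2.99%) remained linked, against 5.11% and 5.45% of the peaks on the assembled chromosomes.

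Distances to the other list were measured on the placed sequences that had a peak in both. Seen from replicate 2, the nearest replicate 1 peak was 25.4 kb away in the median over 209 members, and 73 of these (34.9%) were within 10 kb. On the assembled chromosomes the median was 2.13 kb. Seen from replicate 1, the median was 1.77 kb for 61 placed members and 2.38 kb on the assembled chromosomes. These distances are not independent of the counts, since the placed sequences held 61 peaks in replicate 1 and 217 in replicate 2.

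Linked peaks on U and Uextra often had the same edges. Among the 17 linked pairs there, 7 (41.2%) had both a start and an end within 50 bp of the partner's, and 9 (52.9%) had centers within 200 bp. Among the 22 pairs on the placed sequences these numbers were 0 and 2, and among the 2392 pairs on the assembled chromosomes 41 (1.71%) and 459 (19.2%). For example, the peak on Uextra that holds the highest value of replicate 2 ran from 21860576 to 21862631 in that list and from 21860580 to 21862620 in replicate 1. This comparison of edges was chosen after the positions had been seen.

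The 33 regions are described by the highest value in each replicate. Replicate 2 was higher in 17 of them, with medians of 3.28 in replicate 1 and 3.59 in replicate 2. On the assembled chromosomes, replicate 2 was higher in 280 of 2223 regions (12.6%), and on chromosome 4 alone in 9 of 31 (29.0%). The regions divided by sequence. On U and Uextra, replicate 2 was higher in 12 of 15 regions, with medians of 3.03 and 5.78, and on the placed sequences in 5 of 18, with medians of 3.36 and 2.87. Across the 33 regions, the values of the replicates had a Pearson correlation of 0.02 and a Spearman correlation of -0.13, and across the 2223 regions of the assembled chromosomes 0.10 and 0.08. These are descriptions over regions of the same 2 libraries, which share the limited number of values named above. Within single sequences the Pearson correlation was 0.24 over the 13 regions of Uextra and -0.95 over the 7 of 2RHet, with Spearman correlations of 0.06 and -0.95.

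Of the 10 regions with the best mean rank in both lists, 5 were on Uextra. The first, from 12248202 to 12250251, had a value of 4.72 in replicate 1 (rank 81 of 9080) and 9.75 in replicate 2 (rank 2 of 8792). The second, from 18118516 to 18120615, had 4.97 and 6.87, and the third, from 3203794 to 3205858, had 5.02 and 4.78. These are the regions where both replicates were high. The region from 21860576 to 21862631 had 4.06 and 9.78. The region from 8510183 to 8512195 had 3.28 and 5.23, and there 1 peak of replicate 2 overlaps 2 narrow peaks of replicate 1 that lie next to each other.

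The other 5 were on placed sequences, with values that were closer to each other. On 3LHet, the region from 2517922 to 2521885 had 3.94 and 3.93 and that from 2459912 to 2463852 had 4.43 and 2.77. On 2RHet, the region from 3230636 to 3236257, which joins 2 peaks of each replicate over 5622 bp, had 3.79 and 3.31, and that from 2913676 to 2916503 had 4.08 and 2.78. On 3RHet, the region from 1836145 to 1839101 had 3.56 and 3.16. Replicate 1 had the higher value in each of these 5, with differences (replicate 2 minus replicate 1) from -1.65 to -0.01.

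**Figure D5:**
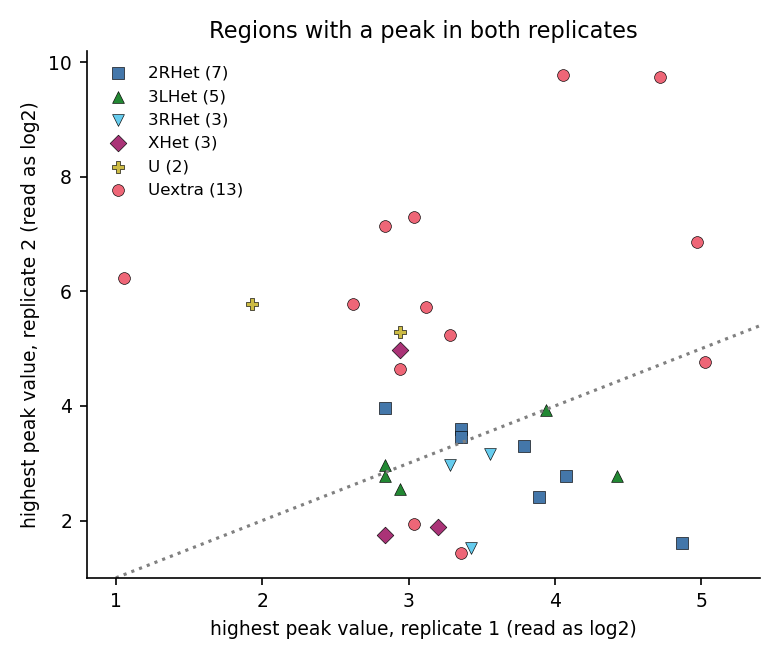
Highest peak value in replicate 2 (vertical axis) against replicate 1 (horizontal axis), both read as log2, for the 33 regions with a peak in both replicates, by sequence; the dotted line marks equal values and the number of regions stands beside each name. Of the 15 regions on U and Uextra 12 lie above the line, and of the 18 on the placed sequences 5 do.

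Among the other 23 regions, the replicates were furthest apart on Uextra from 6949225 to 6951278, with 1.06 in replicate 1 and 6.24 in replicate 2. On 2RHet from 1257971 to 1260232 the order was opposite, with 4.87 and 1.61. The 3 shared regions of XHet were from 10807 to 13069 (2.84 and 1.75), from 68100 to 71306 (3.20 and 1.88) and from 74088 to 75482 (2.94 and 4.97). The peaks of the replicates overlapped by only 29 bp in the first and 75 bp in the second, against 955 bp in the third. The 2 shared regions of U were from 9142093 to 9144116 (2.94 and 5.29) and from 9150291 to 9152311 (1.93 and 5.78), 2 positions close together on that sequence of joined scaffolds.

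Shared and unshared members had different medians in directions that varied with the list and the sequence. On the placed sequences, the replicate 2 peaks with a partner had a median value of 2.78 (20 peaks) and those without had 3.83 (197 peaks). On U and Uextra they had 5.78 (15 peaks) and 5.62 (136 peaks). In replicate 1 the placed peaks with a partner had 3.32 (20 peaks) and those without 3.03 (41 peaks), and on U and Uextra the order was opposite, at 3.03 (17 peaks) and 3.28 (15 peaks). The shared members of Uextra had a median width of 2041 bp in replicate 2 (13 peaks) against 1074 bp for the others (90 peaks), and of 1025 bp in replicate 1 (15 peaks) against 1500 bp (4 peaks). Of the 30 members at exactly 6.97, none had a partner in replicate 1. The same held for all 10 replicate 2 peaks over 6 and up to 7 on the assembled chromosomes.

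Along the placed sequences 2RHet, 3LHet and 3RHet, peaks were less often close together than on the assembled chromosomes. Chains of peaks with gaps of 10 kb or less held 63.5% of the replicate 2 peaks on 2RHet, 59.2% on 3LHet and 64.9% on 3RHet, against 41.4%, 31.2% and 37.5% in replicate 1, whose peaks are fewer. On the assembled chromosomes X, 2L, 2R, 3L, 3R and 4, between 78.8% and 87.7% of the peaks were in such chains in each list. The share of peaks in chains depends on peak density, which was lower on 2RHet, 3LHet and 3RHet. It is therefore not a separate result on spacing. On 3LHet, 12 of 16 peaks of replicate 1 but 20 of 76 of replicate 2 lay in the last of 4 equal stretches of the sequence. On 3RHet, the chain from 1830228 to 1838122 held 3 replicate 1 peaks, all with a partner, and the chain from 1824075 to 1839101 held 3 replicate 2 peaks over the same place. On XHet, the stretch from 50870 to 75482 held 5 of the 8 replicate 1 peaks, with values of 2.09 to 3.94, and all 8 were in chains. There the stretch from 68100 to 87660 held 4 of the 11 replicate 2 peaks, with values of 1.88 to 4.97.

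The 8 peaks of 2LHet, seen in replicate 2 alone, had values from 1.62 to 4.97. The highest, from 18875 to 20860, is the first of 5 peaks in the 22.3 kb up to 41177, and the lowest lay from 154101 to 155203. On Uextra the longest chain, from 28561364 to 28593721, held 6 replicate 2 peaks with values of 4.55 to 7.29 and no replicate 1 peak. The last of 4 equal stretches of Uextra held 45 of its 103 peaks in replicate 2 and 4 of 19 in replicate 1. Since Uextra joins small scaffolds, neither this chain nor these stretches describe places along a chromosome.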

How the data were processed

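ChIP-seq of CLAMP and of input chromatin was made in 2 replicates of *D. melanogaster* and of *D. miranda* female larvae, and the 2 *D. melanogaster* ChIP peak lists were used. The authors aligned reads to dm3 with unique alignments only (Bowtie per the submitters' processing notes, version not given in the sources used here), left out positions with an anomalous excess of tags, scaled libraries to equal size, and peaks were called in each replicate with SPP at default parameters. For each peak the authors deposited a start, an end and 1 unnamed value, taken as log2 because 157 of 256 and 887 of 1595 distinct values had a partner 1 away (tolerance 1e-08). Ranks do not depend on this. The read number and the percentage that the methods give for the replicate 2 ChIP library do not match each other, so its depth is uncertain. By either figure, this library had fewer aligned reads than the replicate 1 ChIP library.

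Members were taken by sequence name. Linking, counts, medians and Clopper-Pearson intervals were computed with Python 3.11.15, NumPy 2.4.6, pandas 2.3.3 and SciPy 1.17.1, and positions were written 1-based. The linking and the intervals were tested on simulated data. Ties in rank were kept together. Intervals of medians come from order statistics, and those of differences hold the median of the assembled chromosomes fixed. The members, the sequences compared and the rule for named regions were chosen with earlier results of these data known. Named are the 10 shared regions with the best mean rank, the 5 highest and the 3 widest members of each list, and every peak of a sequence with 5 or fewer peaks in a list, which added no peak, since only 2LHet in replicate 1 has so few and it has none. Other peaks and regions that stand out were chosen after their values were seen. The alternatives were other rules of overlap, the highest 50% of each list, peaks wider than 1000 bp, sequences left out, means, other top sets, width for ranking and base pairs in place of peaks.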

Additional observations from a re-analysis of the deposited data

How the results depend on the processing

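Of the 50 alternatives to the 10 main values, 29 left the value within its interval or spread or, for a count of regions, within 1.5 times. With centers within 200 bp, 11 regions were shared, and 11.8% and 2.99% of the members. A reciprocal overlap of 50% gave 25.8% and 6.52%. The highest 50% of each list gave 14 regions, 4.32% of the replicate 2 members and a width difference of 208 bp in replicate 2. Peaks wider than 1000 bp alone gave a width difference of 222 bp and a value difference of 1.91 in replicate 2. Without Uextra, 20 regions and 29.7% of the replicate 1 members were shared and the replicate 2 value difference was 1.76. Without U and Uextra, 18 regions were shared and it was 1.50, and without peaks on the steps of 1 it was 1.63. The share of members was 0.99% in the highest 500 of replicate 1, and 45.8% and 27.3% in the highest 500 and 1000 of replicate 2. Among the 100 widest peaks it was 0% and 1.0%. The difference in width changed sign in replicate 1 on the placed sequences (-3.0 bp) and in replicate 2 by means (-59.5 bp), within its interval. The percent of the list ranged from 1.02 to 4.19 when 1 replicate was left out. With 2 replicates, either value always lies within the SD of their mean. These leave-outs are counted among the 29 but do not show that the percent is stable. Shared regions need both lists, so leaving out a replicate gave no value for them. The cause of these changes was not tested. The depth of the replicate 2 ChIP library is uncertain, though both figures in the methods put it below that of the replicate 1 ChIP library. The part of depth in the difference between the replicates was not tested.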
